A study of Homo sapiens with 18 samples.

Results

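Isoproterenol (ISO) stimulation was compared between Gαs KO and wildtype HEK293 cells as a difference in response, the log2 change from basal to ISO in Gαs KO cells minus the same change in wildtype cells. The comparison rests on 12 of the 18 libraries of the series, with 3 biological replicates in each of the groups wildtype basal, wildtype ISO, Gαs KO basal and Gαs KO ISO, and it was tested for each of 15519 genes. HEK293 is a human embryonic kidney cell line, and the Gαs KO line is a derivative depleted of Gαs by CRISPR-Cas9, for which the sources used here do not say whether it is a single clone. Cells of all groups had been transiently transfected with the same plasmid and serum-starved overnight, so the basal groups are transfected, starved cells too. At 48 h after transfection they received vehicle (basal) or 1 μM ISO for 1 h.

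Gαs, encoded by GNAS, is the G protein α subunit that couples agonist-bound receptors to adenylyl cyclase. The cAMP made by this enzyme releases the catalytic subunits of protein kinase A (PKA), which phosphorylate CREB, a transcription factor bound at cAMP response elements (CREs) in promoters. CREB targets include immediate-early genes, which are transcribed within minutes without new protein synthesis, and the gluconeogenic gene PCK1. ISO, a synthetic catecholamine, is the agonist used to start this pathway.

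GNAS read counts followed the cell line labels. All read counts below are normalised, which means scaled to a common library size. GNAS had 33550, 20420 and 21660 reads in wildtype basal libraries and 23140, 24580 and 22490 after ISO, against 1253, 1173 and 1365 at basal and 1205, 1323 and 1340 after ISO in Gαs KO cells. The 6 Gαs KO libraries thus lay far below the 6 wildtype libraries, and the Gαs KO basal mean was 5.01% of the wildtype one. All 8 HEK293-expressed markers were measured, and of 12 markers of blood, liver, muscle, endothelium and other lineages 1 passed the filter on low counts. Library totals ran from 17908597 to 24182597 read pairs. Wildtype basal replicate 1 stood apart: the mean GC content of its reads' genes was 52.3% against 49.2 to 50.0% in the other 11 libraries, and it had a count for 16592 genes against at least 17817 elsewhere. Values without this library are therefore given beside the calls that change with it.

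The response to ISO differed between the lines for 25 genes, 0.161% of those tested, at an adjusted p under 0.05 in edgeR's quasi-likelihood test. For 24 of them (0.155% of genes) the Gαs KO response was lower, and for TXNIP it was higher (0.00644%). In wildtype cells alone ISO changed 72 genes (0.464%), of which 64 rose (0.412%) and 8 fell (0.0515%). All 25 genes were among these 72, which is a description only since both tests share the wildtype libraries. The wildtype groups did not overlap for any of the 25, with 24 higher after ISO (4.85% of all genes) and TXNIP lower (4.16%). In Gαs KO cells edgeR called 0 genes (0%), while 163 genes (1.05%) had an unadjusted p under 0.05 and DESeq2's Wald test called 9 (0.058%). If no gene responded, a share of about 0.05 would be expected under that p, so edgeR's test was conservative there. Genes not called in Gαs KO cells are thus not shown to lack a response. The part of the estimate of spread, which all groups share, was not tested. In bulk RNA, fewer responding cells and a smaller response per cell cannot be told apart. Without wildtype basal replicate 1 the same 25 genes and 41 more were called in the difference, 66 in all (0.418%), with 173 genes (1.1%) in the wildtype response and 0 in Gαs KO cells. Fitted on the 12 libraries alone, 15 of the 25 genes were called, and those no longer called included RHOB (adjusted p = 0.157), SGK1 (0.0976), CITED2 (0.0857), FOSL2 (0.0767), SIK1B (0.0617), GEM (0.0617), ZFP36L1 (0.226), FAM43A (0.208) and RGS2 (0.299).

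**Figure D1:**
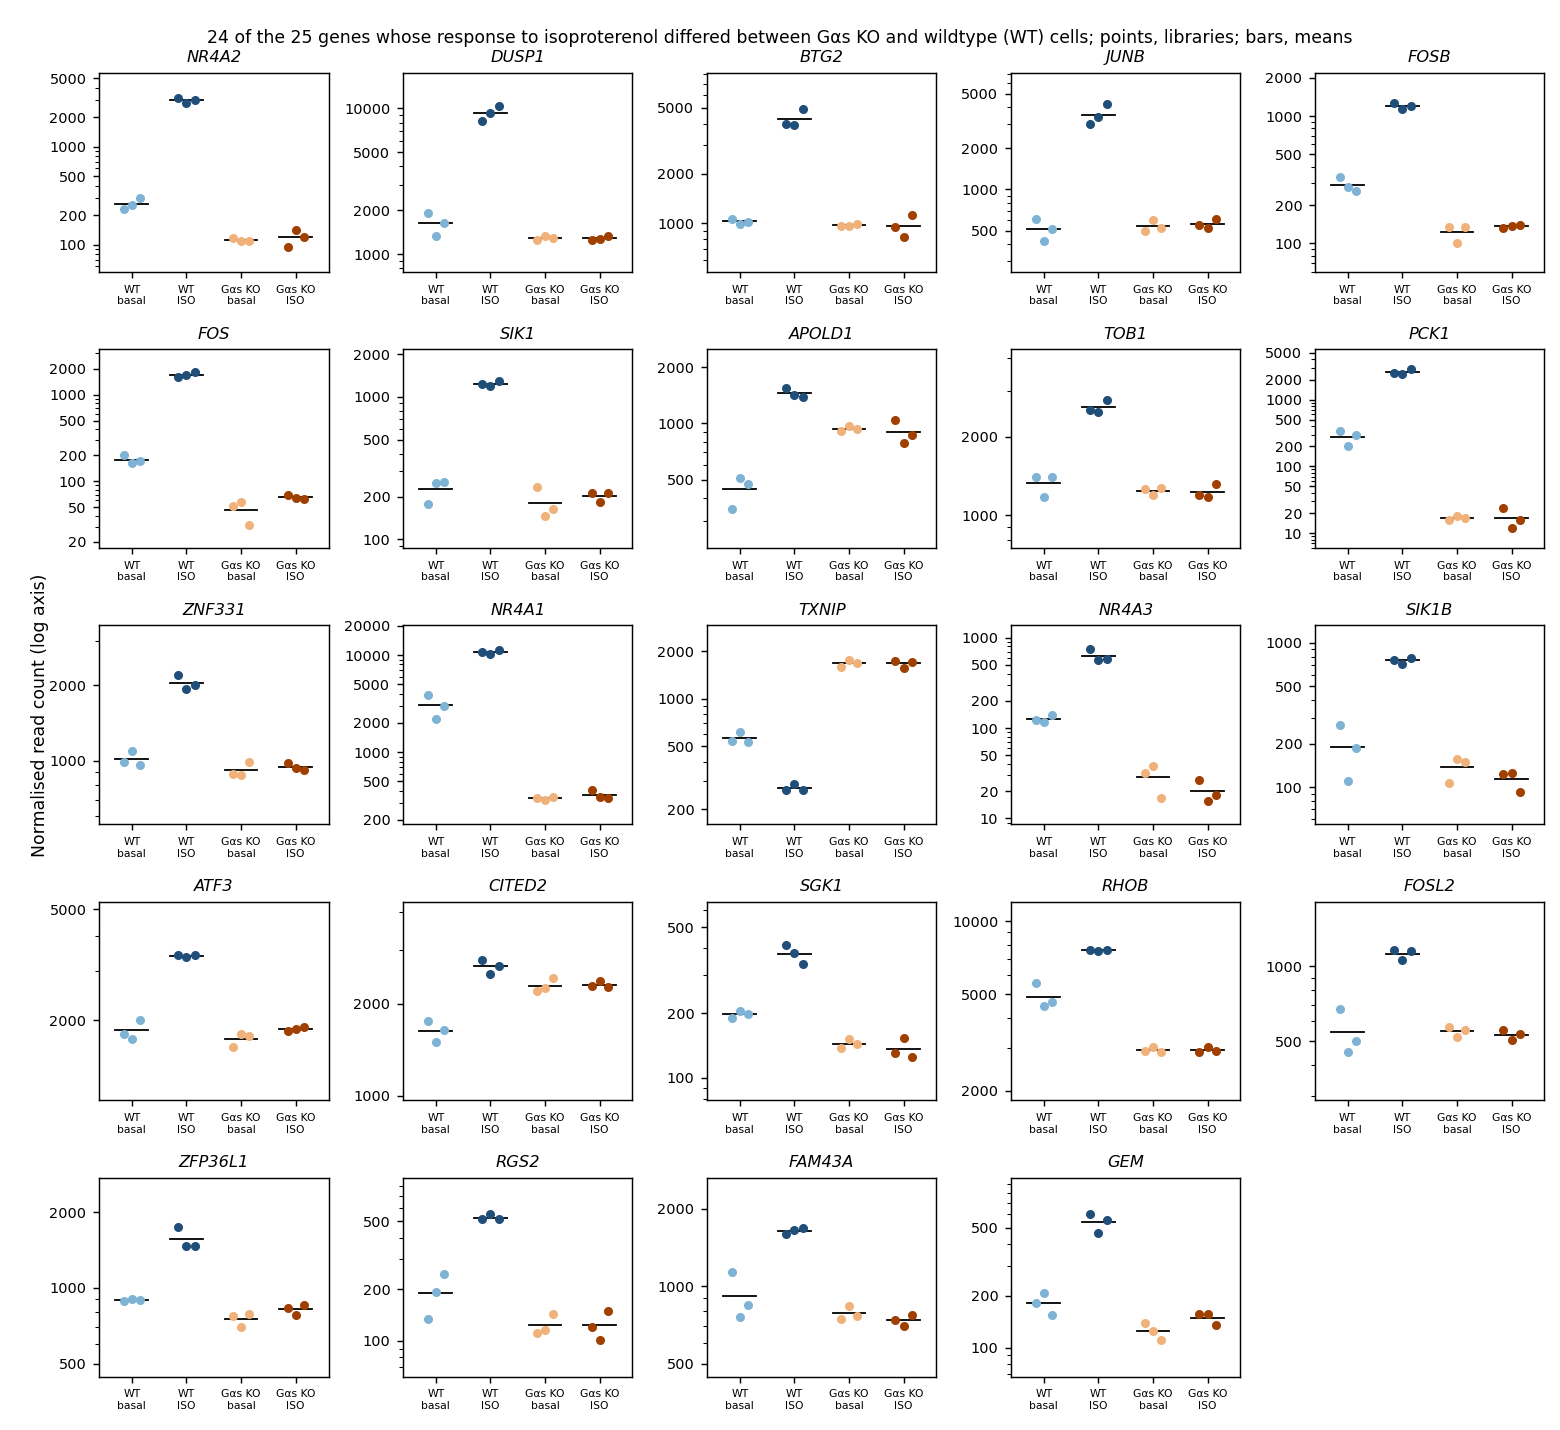
Normalised read count (log axis) of 24 of the 25 genes called in the difference in response, in each of the 12 libraries. Points are libraries, horizontal bars are means of 3, and colours mark wildtype (WT) basal, WT ISO, Gαs KO basal and Gαs KO ISO. For the genes shown other than TXNIP the 3 WT ISO libraries lie above all other libraries, and the Gαs KO basal and ISO libraries lie close to each other.

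Genes were also grouped into lists by function. The lists were chosen with earlier results of these data known, so their counts of calls are a description only. Among them, the immediate-early transcription factors held the most called differences. Of 22 measured members of this list, 10 rose with ISO in wildtype cells, 0 in Gαs KO cells, and 8 had a lower response in Gαs KO cells: NR4A1, NR4A2, NR4A3, FOS, FOSB, FOSL2, JUNB and ATF3. Over all genes, 0.412% rose in wildtype cells and 0.155% had a lower response in Gαs KO cells. The list's median log2 change was 0.78 in wildtype and 0.04 in Gαs KO cells, where the median over all genes was -0.00 in both. Without wildtype basal replicate 1, IER2 and JUND joined the members called, which made 10, where 0.418% of all genes were called.

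The NR4A genes encode orphan nuclear receptors. NR4A2 had 232, 253 and 298 reads in wildtype basal libraries and 3149, 2809 and 2997 after ISO, but 116, 108 and 109 at basal and 93.95, 143 and 119 after ISO in Gαs KO cells. Its wildtype ISO libraries lay far above every other library, whereas its Gαs KO groups overlapped. NR4A2 rose 3.52 ± 0.13 (log2, SE) in wildtype cells against 0.10 ± 0.14 in Gαs KO cells, a difference of -3.42 ± 0.19 (adjusted p = 5.55e-08). NR4A1 started from a higher level, with 3886, 2219 and 2975 reads in wildtype basal and 10770, 10320 and 11270 in wildtype ISO libraries, against 334, 323 and 343 at basal and 406, 347 and 340 after ISO in Gαs KO cells. Every Gαs KO library, stimulated or not, was below every unstimulated wildtype library for this gene. Its difference in response was -1.71 ± 0.22 (adjusted p = 0.000949). NR4A3 went from 122, 117 and 141 to 749, 565 and 585 reads in wildtype cells, and was at 31.7, 38.4 and 16.8 at basal and 26.4, 15.7 and 18.2 after ISO in Gαs KO cells. Its Gαs KO groups overlapped, and its difference was -2.83 ± 0.38 (adjusted p = 0.00157).

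FOS and JUN family proteins pair to form the AP-1 transcription factor. FOS had 201, 161 and 172 reads at basal and 1598, 1687 and 1813 after ISO in wildtype cells, against 51.4, 57.2 and 31.0 at basal and 68.5, 64.6 and 62.5 after ISO in Gαs KO cells. The Gαs KO groups of FOS did not overlap, and its change there, 0.50 with a 95% interval of 0.05 to 0.95, had an unadjusted p of 0.0329 and did not pass the adjusted test. Its difference in response was -2.76 ± 0.27 (adjusted p = 6.44e-05). JUNB began at similar levels in both lines, with 603, 419 and 513 reads in wildtype and 500, 599 and 522 in Gαs KO basal libraries. After ISO, JUNB reached 2987, 3376 and 4186 reads in wildtype cells, and 550, 521 and 604 in Gαs KO cells, within the basal range but for the highest library. JUNB differed by -2.73 ± 0.19 (adjusted p = 5.51e-07). FOSB rose from 330, 279 and 260 to 1277, 1133 and 1198 reads in wildtype cells and was at 135, 101 and 133 before and 131, 136 and 140 after ISO in Gαs KO cells. Its groups overlapped in Gαs KO cells, and the difference was -1.92 ± 0.19 (adjusted p = 6.01e-05). FOSL2 rose in wildtype cells from 676, 453 and 500 to 1162, 1064 and 1157 reads, with 568, 519 and 555 at basal and 552, 504 and 532 after ISO in Gαs KO cells. Its difference was -1.10 ± 0.19 (adjusted p = 0.0178). ATF3, a stress-inducible CREB/ATF family member, had a smaller wildtype change of 0.89 ± 0.08 and a difference of -0.77 ± 0.11 (adjusted p = 0.0041). In Gαs KO cells ATF3 had 1610, 1781 and 1754 reads at basal and 1834, 1866 and 1892 after ISO, groups that did not overlap. Its change there, 0.12 with an interval of -0.05 to 0.29, did not pass.

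Other members of the list kept out of the 25 genes. EGR3, a zinc finger factor, had 29.2, 17.8 and 23.5 reads at basal and 112, 76.0 and 82.5 after ISO in wildtype cells, and 25.2, 36.6 and 33.5 at basal and 46.0, 60.7 and 55.7 after ISO in Gαs KO cells. The ISO libraries of EGR3 lay above the basal ones in both lines, and its difference of -1.16 ± 0.37 did not pass (adjusted p = 0.731). EGR1 had 261, 307 and 282 reads at basal and 463, 435 and 471 after ISO in Gαs KO cells, against 408, 262 and 382 and then 405, 370 and 466 in wildtype cells. Its Gαs KO groups did not overlap and its wildtype groups did. EGR1 was 1 of the 9 genes DESeq2 called in Gαs KO cells (log2 0.69, adjusted p = 0.00992), but its edgeR adjusted p there was 1, and its difference between lines, 0.45 on the log2 scale, did not pass. Of the other 8 genes, 7 were at 0 reads in all 3 libraries of a Gαs KO group. RAB33B, the only one of the 8 with reads in every library, fell by 1.30 on the log2 scale in DESeq2. EGR1 and RAB33B were singled out after their values were seen.

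Promoter sequences were read for 20 of the 25 genes from RefSeq windows of 250 bases before each start (GRCh38.p14). The full palindromic CRE, TGACGTCA, was found in 2 of 20 genes (10.0%), DUSP1 and ZFP36L1, and in 3.25% of the 11606 tested genes with a window. Its core, TGACG or CGTCA on the same strand, was in 14 of 20 (70.0%), in 15 of 34 (44.1%) of the other genes called in wildtype cells, and in 34.4% of tested genes. The full CRE holds both cores, which overlap, so a gene with the full element also counts as having the core. Both genes with the full CRE are shown, followed by FOS, FOSB, NR4A3 and FOSL2, which were chosen after their values were seen because each has a core near the start. Capitals mark the full CRE or the core, and each stretch is read 5′ to 3′ on the gene's strand.
DUSP1, chr5:172771287-172771382 (minus strand): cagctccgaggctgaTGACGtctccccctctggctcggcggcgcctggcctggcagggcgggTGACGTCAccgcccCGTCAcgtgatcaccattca
ZFP36L1, chr14:68793446-68793483 (minus strand): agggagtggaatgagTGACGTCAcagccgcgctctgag
FOS, chr14:75278749-75278783 (plus strand): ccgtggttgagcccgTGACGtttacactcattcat
FOSB, chr19:45467921-45467955 (plus strand): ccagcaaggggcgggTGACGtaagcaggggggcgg
NR4A3, chr9:99821761-99821879 (plus strand): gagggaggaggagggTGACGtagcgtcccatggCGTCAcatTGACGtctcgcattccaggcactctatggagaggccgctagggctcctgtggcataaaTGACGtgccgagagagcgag
FOSL2, chr2:28392777-28392811 (plus strand): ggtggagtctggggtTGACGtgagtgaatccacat
The DUSP1 element begins 125 bases and the ZFP36L1 element 52 bases before the start, and the FOS, FOSB and nearest FOSL2 cores begin 64, 60 and 66 bases before it. NR4A3 held 4 cores, the nearest 25 bases before its start. A match of letters is a description and not evidence that a factor binds there.

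Regulators of cAMP and G protein signalling were a smaller group. Of 21 listed and measured phosphodiesterase, PKA inhibitor, CREM, SIK and RGS genes, 3 rose with ISO in wildtype cells, against 0.412% of all genes. A lower response in Gαs KO cells was called for 2, SIK1 and RGS2, against 0.155% of all genes. SIK1, a salt-inducible kinase that restrains CREB coactivators, had 178, 249 and 252 reads at basal and 1225, 1193 and 1290 after ISO in wildtype cells, against 235, 145 and 164 at basal and 210, 182 and 212 after ISO in Gαs KO cells. Basal libraries of both lines overlapped, and only the wildtype ISO libraries were high. Its difference was -2.30 ± 0.24 (adjusted p = 8.59e-05). SIK1B, a near-identical copy on the same chromosome with which reads may be shared, differed by -2.28 ± 0.33 (adjusted p = 0.0041), and with the counts of both summed the difference was -2.28. RGS2, which speeds GTP hydrolysis by G protein α subunits, rose from 133, 194 and 247 to 513, 551 and 515 reads in wildtype cells, with 111, 115 and 143 and then 120, 101 and 149 in Gαs KO cells. Its Gαs KO groups overlapped, and its difference was -1.46 ± 0.26 (adjusted p = 0.0272). The third wildtype responder, RGS16, differed by -0.61 ± 0.17 (adjusted p = 0.514), and by -0.83 ± 0.09 (adjusted p = 4.93e-05) without wildtype basal replicate 1.

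Among 17 measured MAP kinase phosphatases and ERK feedback genes, 3 rose with ISO in wildtype cells, against 0.412% of all genes. DUSP1, a phosphatase that inactivates MAP kinases, was the only member called in the difference, where 0.155% of all genes had a lower response. It had 1917, 1334 and 1636 reads at basal and 8162, 9337 and 10450 after ISO in wildtype cells, and stayed between 1256 and 1333 reads in the 6 Gαs KO libraries. With an interval of -0.24 to 0.23, its Gαs KO response was centred near 0, and its difference was -2.52 ± 0.16 (adjusted p = 1.84e-07). DUSP5, an ERK-specific phosphatase, had 277, 221 and 237 reads at basal and 501, 396 and 385 after ISO in wildtype cells, against 110, 78.7 and 73.7 and then 115, 101 and 121 in Gαs KO cells. Its basal level in Gαs KO cells was 35.7% of the wildtype one. The DUSP5 difference in response was -0.45 with an interval of -0.91 to 0.02, and it did not pass (adjusted p = 0.889). SPRY2, an ERK pathway inhibitor that rose 0.47 in wildtype cells, differed by -0.42 ± 0.12 (adjusted p = 0.545), and was called without wildtype basal replicate 1 (-0.51 ± 0.09, adjusted p = 0.0133).

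Of 13 measured genes of mRNA decay and growth arrest, 6 rose with ISO in wildtype cells, against 0.412% of all genes. A lower response in Gαs KO cells was called for 3, BTG2, TOB1 and ZFP36L1, against 0.155% of all genes. In Gαs KO cells alone 0 members were called. BTG2, an antiproliferative partner of the CCR4-NOT deadenylase, had 1059, 995 and 1017 reads at basal and 3980, 3945 and 4954 after ISO in wildtype cells, and 954, 963 and 993 and then 942, 828 and 1120 in Gαs KO cells. All 9 libraries other than wildtype ISO thus lay in a narrow band, and the difference was -2.08 ± 0.14 (adjusted p = 5.51e-07). TOB1, of the same protein family, went from 1398, 1169 and 1403 to 2534, 2491 and 2766 reads in wildtype cells and remained between 1175 and 1317 in Gαs KO cells. Its difference was -0.99 ± 0.11 (adjusted p = 0.000349). ZFP36L1, which binds AU-rich elements, differed by -0.67 ± 0.11 (adjusted p = 0.0181). BTG1, ZFP36L2 and GADD45B rose in wildtype cells by 0.47, 0.49 and 0.83 without a called difference, and of these ZFP36L2 and GADD45B were called without wildtype basal replicate 1.

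PCK1, the rate-limiting enzyme of gluconeogenesis, had the lowest stimulated level relative to wildtype among the 25 genes. It had 339, 200 and 291 reads at basal and 2522, 2386 and 2865 after ISO in wildtype cells, but 15.9, 17.8 and 16.8 at basal and 23.5, 11.8 and 15.9 after ISO in Gαs KO cells. The stimulated Gαs KO mean was 0.658% of the stimulated wildtype mean, and the Gαs KO groups overlapped. PCK1 differed by -3.20 ± 0.37 (adjusted p = 0.000367). SGK1, a kinase that regulates ion and glucose transport, had 190, 204 and 198 reads at basal and 414, 381 and 336 after ISO in wildtype cells, and 137, 151 and 143 and then 131, 154 and 125 in Gαs KO cells. Its difference was -1.01 ± 0.16 (adjusted p = 0.0069). These were 2 of 13 measured genes of gluconeogenesis and fuel metabolism, where 0.155% of all genes had a lower response. In wildtype cells 3 of the 13 rose, against 0.412% of all genes. The third, the glucose transporter SLC2A3, differed by -1.10 ± 0.23 (adjusted p = 0.0911), and was called without wildtype basal replicate 1 (-0.92 ± 0.19, adjusted p = 0.0353).

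In the list of small GTPases and cytoskeletal regulators, 5 of 12 measured genes rose in wildtype cells, against 0.412% of all genes. Of these 5, 3 were small GTPases, RHOB and GEM among them. The same 3 had a lower response in Gαs KO cells, against 0.155% of all genes. RHOB, which acts at endosomes, had 5547, 4483 and 4635 reads at basal and 7642, 7521 and 7613 after ISO in wildtype cells, and between 2880 and 3046 in the 6 Gαs KO libraries. Its difference was -0.64 ± 0.10 (adjusted p = 0.0101). GEM, a Ras-like GTPase that inhibits calcium channels, had 181, 210 and 154 reads and then 601, 467 and 559 in wildtype cells, against 140, 125 and 111 and then 157, 157 and 135 in Gαs KO cells. GEM had the highest adjusted p of the 25 genes (0.0323), for a difference of -1.32 ± 0.24. The YAP targets CYR61 and CTGF, matricellular proteins placed in the same list, rose by 1.22 and 1.59 in wildtype cells. In Gαs KO cells CTGF had 240, 231 and 221 reads at basal and 345, 363 and 328 after ISO, and CYR61 had 811, 914 and 783 and then 1167, 1068 and 1084. Neither gene's groups overlapped there, yet neither change passed the adjusted test. The difference was -1.01 ± 0.21 for CTGF (adjusted p = 0.0923) and -0.82 ± 0.21 for CYR61 (adjusted p = 0.287), and both were called without wildtype basal replicate 1, at -1.26 and -1.11.

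**Figure D2:**
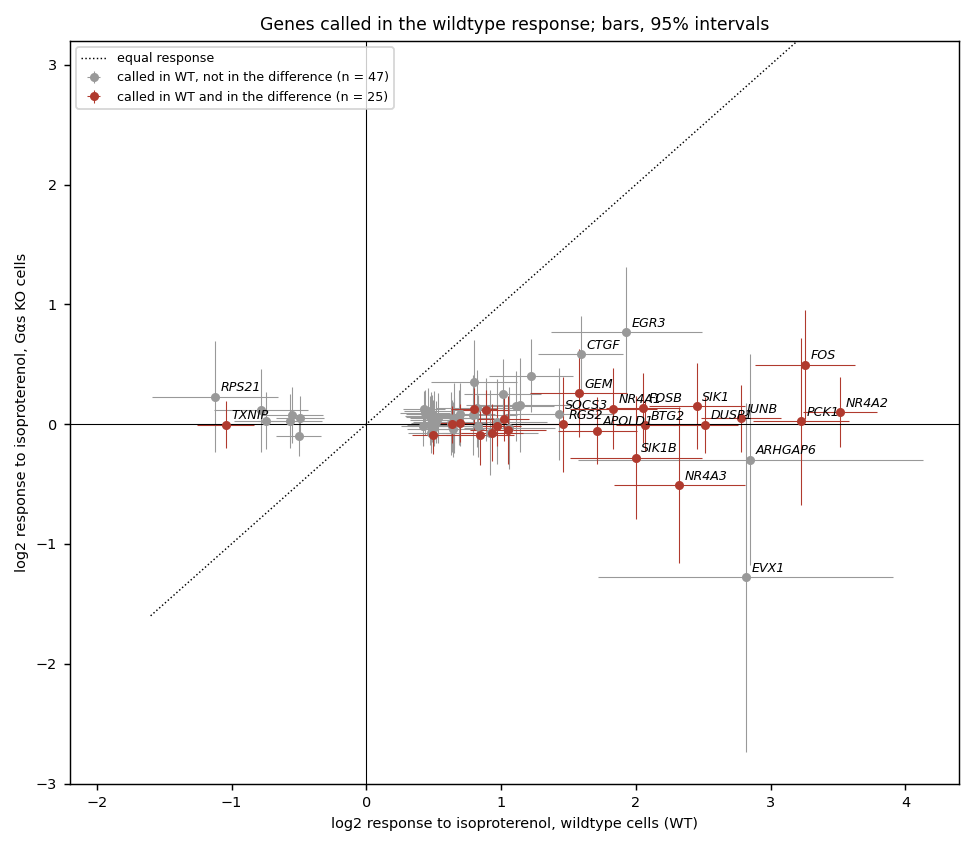
Log2 response to ISO in Gαs KO cells (vertical axis) against wildtype cells (WT, horizontal axis) for the 72 genes called in wildtype cells, with 95% intervals as bars. The 25 genes called in the difference (red) lie between -0.51 (NR4A3) and 0.50 (FOS) in Gαs KO cells, and the dotted line marks equal responses. EGR3 and CTGF have the highest Gαs KO values, 0.77 and 0.58.

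APOLD1, ZNF331, CITED2 and FAM43A were further genes with a lower response. CITED2, a CBP/p300-binding transcriptional coregulator, had 1758, 1496 and 1639 reads at basal and 2785, 2500 and 2659 after ISO in wildtype cells, and 2193, 2255 and 2425 and then 2277, 2367 and 2275 in Gαs KO cells. Here the unstimulated Gαs KO libraries lay between the wildtype groups, and the difference was -0.69 ± 0.11 (adjusted p = 0.0069). FAM43A differed by -0.93 ± 0.17 (adjusted p = 0.0272).

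TXNIP, which binds thioredoxin and restrains glucose uptake, was the only gene with a higher response in Gαs KO cells. It fell from 545, 612 and 532 to 266, 288 and 265 reads in wildtype cells, and was at 1584, 1763 and 1693 before and 1741, 1563 and 1720 after ISO in Gαs KO cells. Its wildtype groups did not overlap and its Gαs KO groups did. TXNIP changed by -1.04 ± 0.10 in wildtype and -0.00 ± 0.09 in Gαs KO cells, a difference of 1.04 ± 0.14 (adjusted p = 0.00115). It was listed with heat shock and stress proteins, of which the other 12 measured had no called response in either line. The other 7 genes that fell in wildtype cells were TMEM258, RPS26, COX7C, RPS21, SMPD1, ATP5MD and COPS9. Of these 7, TMEM258, COX7C, RPS21 and ATP5MD were called in the difference without wildtype basal replicate 1, where RPS21 had 14130 reads against 6670 and 6714 in the other wildtype basal libraries.

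Responses in Gαs KO cells were summarised over the 72 genes called in wildtype cells, a choice that used no difference in the Gαs KO libraries. Their median log2 change was 0.04, and the 95% interval of 67 of the 72 included 0, as it did for 15335 of all 15519 genes. That of 68 of the 72 lay within -1 and 1, as it did for 12674 of all genes. An unadjusted p under 0.05 was seen for 5 genes (6.94%, against 1.05% of all genes), FOS, EGR3, CTGF, CYR61 and DUSP5, all upward. The ISO libraries of 9 genes lay above the basal ones (12.5%, against 4.9% of all genes) and those of RPS26 lay below (5.58% of all genes). The 47 genes called in wildtype cells but not in the difference had a median wildtype change of 0.63, against 1.58 for the 25. All of these 47 differences were opposite in sign to the wildtype response, as were 13573 of all 15519, since the difference subtracts that response. Of the 47, 46 had an unadjusted p under 0.05 (4.63% of all genes), but the choice of genes on the wildtype libraries favours the opposite sign. The gene nearest the threshold on the other side was SOCS3, a feedback inhibitor of cytokine signalling (-1.35 ± 0.26, adjusted p = 0.0571). It was followed by ETS2 (0.0603), CSRNP1 (0.0729), GADD45B (0.0802) and MN1 (0.0815), given as adjusted p. Without wildtype basal replicate 1 all 5 were called, with adjusted p of 0.027 for SOCS3, 0.000181 for ETS2, 6.24e-05 for CSRNP1, 6.09e-05 for GADD45B and 0.0164 for MN1. With all libraries ETS2 was not among the genes called in wildtype cells (0.50 ± 0.13, edgeR adjusted p = 0.166). In Gαs KO cells ETS2 went from 370, 383 and 387 to 264, 271 and 295 reads (-0.46 ± 0.13, edgeR unadjusted p = 0.00336). Among the 47, ARHGAP6 and the homeobox gene EVX1 had the highest fitted wildtype changes. EVX1 went from 9.38, 7.81 and 4.48 to 51.1, 40.5 and 63.7 reads, with 0.93 to 8.43 in the Gαs KO libraries, and its difference was -4.10 ± 0.85 (adjusted p = 0.0923). EVX1 was called without wildtype basal replicate 1 (-4.33 ± 0.90, adjusted p = 0.0435). ARHGAP6 was under 3 counts, the floor used here, in every wildtype basal library and gets no fold.

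The remaining lists held 0 called differences with all libraries. Of 24 measured genes of sterol and fatty acid synthesis, IDI1 and INSIG1 rose in wildtype cells, against 0.412% of all genes. Both were among 3 called in the difference without wildtype basal replicate 1, against 0.418% of all genes. In that replicate IDI1 had 881 reads against 1818 and 1624 in the other wildtype basal libraries. KLF9 among 12 Kruppel-like factors and ID2 among 15 clock, ID and HES/HEY repressors rose in wildtype cells by 0.50 and 0.52, where 0.412% of all genes rose. Their differences were -0.51 ± 0.11 (adjusted p = 0.144) and -0.50 ± 0.11 (adjusted p = 0.187). Without wildtype basal replicate 1 both were called, KLF9 with an adjusted p of 0.0415 and ID2 with 0.0441. So were KLF4 (0.0172) and BHLHE40 (0.0441) of the same lists, against 0.418% of all genes. None of 14 neuroendocrine cAMP targets, 8 HEK293-expressed markers or 32 genes from receptor to CREB was called in any response by edgeR.

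**Figure D3:**
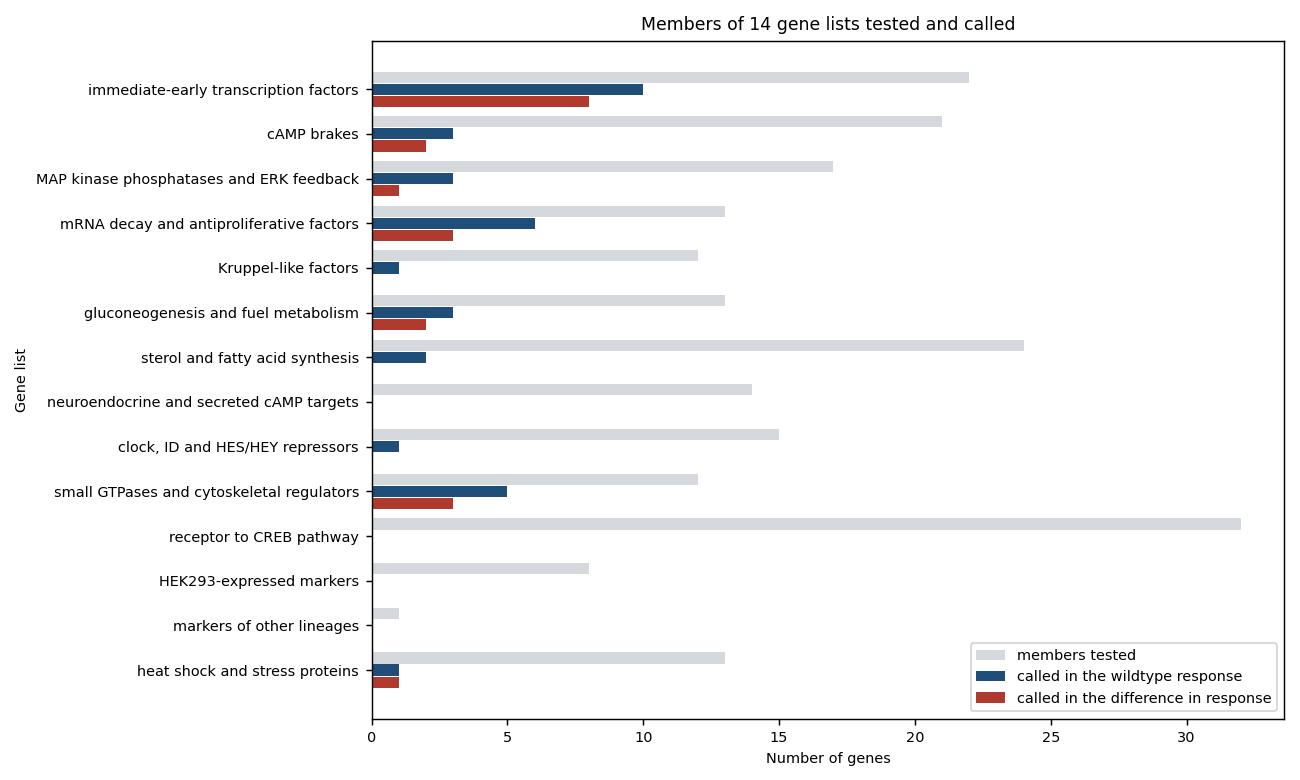
Number of genes in each of 14 lists (horizontal axis) that were measured (grey), called in the wildtype response (blue) and called in the difference in response (red). The immediate-early transcription factors have the most calls, 10 of 22 in wildtype cells and 8 in the difference. The lists were chosen with earlier results of these data known.

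Basal levels separated the 25 genes into those that differed between the lines before ISO and those that did not. The basal comparison called 4864 genes (31.3%), 2206 higher (14.2%) and 2658 lower (17.1%) in Gαs KO cells, and 7236 (45.9%) without wildtype basal replicate 1. It shares both basal groups with the difference in response, so neither is independent of the other. Among the 25 genes, 12 were lower and 3 (TXNIP, APOLD1 and CITED2) were higher in Gαs KO cells. Basal groups did not overlap for 12 genes downward (18.8% of all genes) and 3 upward (19.2%), a set that differs from the called one in that RGS2 overlapped and BTG2, not called, did not. PCK1 was lowest, at 6.08% of its wildtype basal mean (-4.03 ± 0.23, adjusted p = 2.65e-09). It was followed by NR4A1 (-3.18 ± 0.16), NR4A3 at 22.9% (-2.13 ± 0.26) and FOS at 26.1% (-1.94 ± 0.20). FOSB and NR4A2 were at 42.6 and 42.4%, and RHOB, RGS2, GEM, SGK1, DUSP1 and ZFP36L1 were between 60.4 and 84.2%. The other 10 genes, among them JUNB, BTG2, TOB1, FOSL2 and ATF3, had no called basal difference, with intervals that for JUNB ran from -0.21 to 0.36 and for FOSL2 from -0.27 to 0.29. Lost responses were therefore measured both in genes with a lower basal level and in genes whose basal levels were not distinguished. Without wildtype basal replicate 1, the DUSP1 basal difference was -0.20 and no longer called (adjusted p = 0.084), while that of SIK1 (-0.47, adjusted p = 0.0239) was. For 20 of the 25 genes the stimulated Gαs KO mean was below the unstimulated wildtype mean, as it was for 7684 of all 15519 genes.

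**Figure D4:**
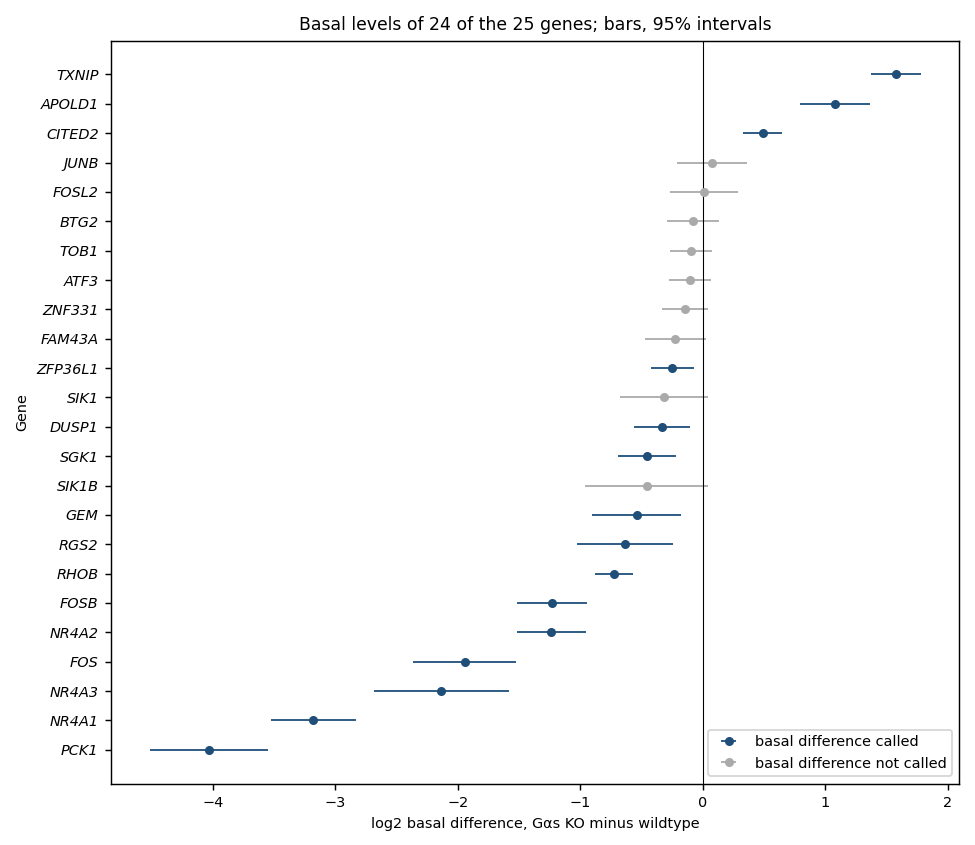
Basal log2 difference, Gαs KO minus wildtype, of 24 of the 25 genes, with 95% intervals as bars. Blue marks the 15 genes with a called basal difference, 12 below 0 and 3 above, and grey those without.

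Transcript counts were read for the 25 genes. For 22 of them, 1 transcript held more than 75% of the change between the wildtype groups, and the share over all genes was not computed. DUSP1, JUNB, SIK1, SIK1B, RHOB, RGS2 and FAM43A had a single transcript with a group mean of at least 20 reads. For these genes the outcome was largely fixed in advance. Transcript values are Salmon's estimates, which divide reads among overlapping transcripts, and they carry no test here. APOLD1, which encodes an endothelial early response protein, was higher at basal in Gαs KO cells and yet lost its response, with 347, 507 and 475 reads at basal and 1544, 1424 and 1389 after ISO in wildtype cells, and 908, 965 and 933 and then 1042, 790 and 868 in Gαs KO cells. Its difference at the gene was -1.77 ± 0.19 (adjusted p = 0.000142). Transcript ENST00000356591, which starts at base 12785607 of chromosome 12 (GRCh38), held 91.0% of the wildtype gain, from 345, 320 and 228 to 1452, 1145 and 1050 estimated reads. In Gαs KO cells it was at 0, 0 and 122 at basal and 0, 35.7 and 0 after ISO. ENST00000326765, from a start at base 12725931, held 93.5% of the gene's Gαs KO basal reads, with a mean of 875 against 133 in wildtype basal cells and 856 and 210 after ISO. The higher basal level of the gene in Gαs KO cells and its wildtype response thus lay on different starts. The RefSeq window with a core ends at a start 14 bases from that of the second transcript, and belongs to neither the responding transcript nor its start.
APOLD1, chr12:12725788-12725822 (plus strand): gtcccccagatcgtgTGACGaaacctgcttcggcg

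ZNF331, a zinc finger gene, had 985, 1093 and 959 reads at basal and 2210, 1942 and 2003 after ISO in wildtype cells, and between 876 and 985 in the 6 Gαs KO libraries, a difference of -0.98 ± 0.12 (adjusted p = 0.000949). Transcript ENST00000648511, which starts at base 53554827 of chromosome 19, was at 0 in the 3 wildtype basal libraries and all 6 Gαs KO libraries, and at 703, 471 and 680 estimated reads in wildtype ISO libraries. It held 59.5% of the gain, and ENST00000648122, from base 53538430, a further 37.7% with 0 in the wildtype basal libraries and 395, 430 and 352 after ISO. In Gαs KO cells ENST00000648122 was at 0, 33.1 and 0 at basal and 152, 0 and 0 after ISO. ENST00000449416, from base 53536323, went the other way in wildtype cells, from 334, 440 and 359 to 276, 174 and 121 estimated reads. Its Gαs KO means were 186 at basal and 228.5 after ISO. Salmon divides reads among overlapping transcripts, so reassigned reads and a newly used start cannot be told apart here. ENST00000253144, from base 53521024, held most of the basal reads and had means of 516 and 555 in wildtype and 499 and 508 in Gαs KO cells. The window at the start of ENST00000648511 holds cores 215, 168, 80 and 52 bases before it. The nearest pair is shown, because reads were assigned to this transcript in the wildtype ISO libraries. Other windows of ZNF331 held cores too.
ZNF331, chr19:53554732-53554794 (plus strand): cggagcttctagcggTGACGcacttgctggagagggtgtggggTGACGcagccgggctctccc

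**Figure D5:**
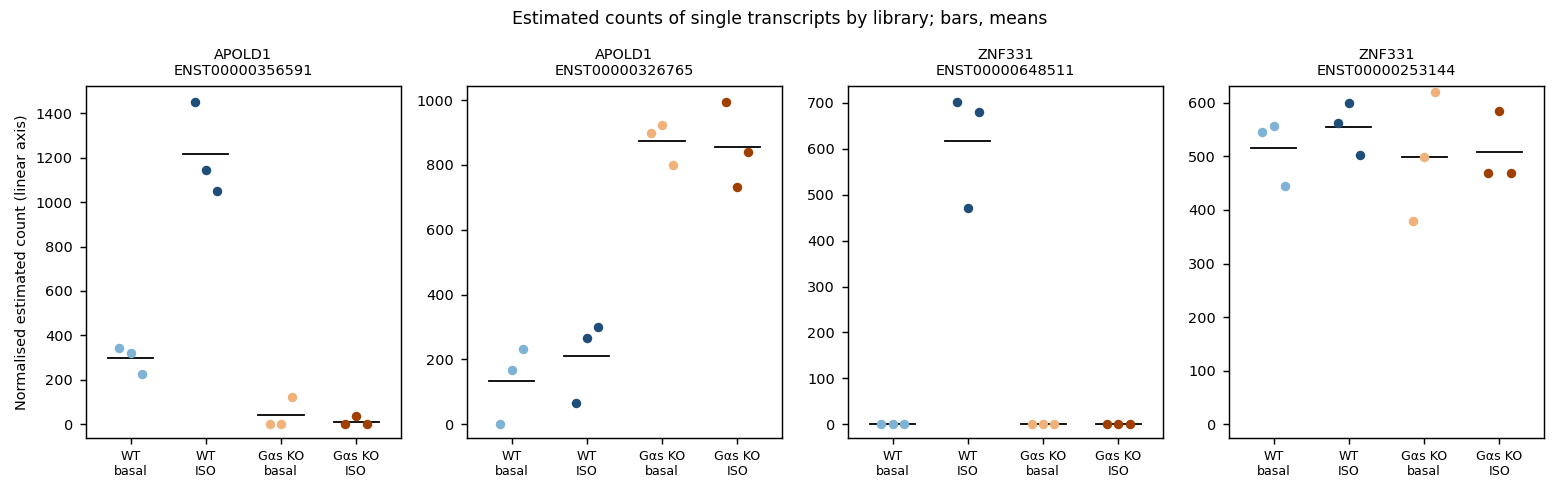
Normalised estimated count (linear axis) of 2 transcripts each of APOLD1 and ZNF331 by library. Points are libraries and bars are means of 3. ENST00000356591 and ENST00000648511 are highest in wildtype (WT) ISO libraries, and in Gαs KO libraries the first is at 0 to 122 and the second at 0, while ENST00000326765 is highest in Gαs KO libraries and ENST00000253144 overlaps among all groups.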

How the data were processed

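RNA-Seq of poly-A-selected RNA was described for the wildtype and Gαs KO libraries, with 3 biological replicates per group. The deposited table holds Salmon 1.7.0's expected counts per transcript, which the authors had not normalised. Whether replicates came from separate cultures is not stated beyond "biol rep" in the labels, so p-values measure the spread between these libraries.

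Transcripts were summed to genes of GENCODE 29 (GRCh38). Of 184844 transcripts 161798 matched, which kept 92.9 to 93.6% of each library's counts, and sums were rounded. edgeR 4.0.16 (R 4.3.3) scaled libraries by TMM, filtered genes with filterByExpr by group and fitted its quasi-likelihood model, with 6 group coefficients, to all 18 libraries, so that the β-arrestin1/2 KO libraries helped to estimate the spread. A gene was called at a p under 0.05 after Benjamini-Hochberg adjustment over 15519 genes. All tests are two-sided. With 3 libraries against 3, an exact permutation test of a single gene cannot go below a p of 0.1, so none was used. SEs are the log2 change divided by the square root of F, and 95% intervals use the fit's degrees of freedom. Normalised counts are TMM-scaled counts at the mean library size.

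Alternatives were DESeq2 1.42.0, other scalings, filters, thresholds and library sets, GC and length offsets (lowess span 0.3), replicate blocks, unmatched transcripts, and each library left out. Chosen after seeing the data were SIK1 and SIK1B summed, and GC and length offsets without wildtype basal replicate 1. The scripts were tested on simulated data.

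Genes named are those called in the difference, the 10 largest wildtype responses not called in it, the 5 nearest the threshold, list members called in a response, and GNAS, PCK1, DUSP1, FOS, FOSL2, JUNB and DUSP5. The comparison and the gene lists were chosen with earlier results of these data known. Some genes that the rule names are not reported here. NR4A2, PCK1, SIK1B and GEM have no promoter window in the table used. Intervals cover the spread between libraries and counting error only.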

Additional observations from a re-analysis of the deposited data

Results flagged for a closer look

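The test of the difference itself marked the response to ISO as unequal in the 2 cell lines for 25 genes, of which 24 are given here as log2 differences, Gαs KO minus wildtype. Among transcription factors and their partners they were -3.42 for NR4A2, -1.71 for NR4A1, -2.83 for NR4A3, -2.76 for FOS, -1.92 for FOSB, -1.10 for FOSL2, -2.73 for JUNB, -0.77 for ATF3, -0.69 for CITED2 and -0.98 for ZNF331. Among signalling regulators they were -2.52 for DUSP1, -2.30 for SIK1, -2.28 for SIK1B, -1.46 for RGS2, -1.01 for SGK1, -0.64 for RHOB and -1.32 for GEM. Among the others they were -2.08 for BTG2, -0.99 for TOB1, -0.67 for ZFP36L1, -3.20 for PCK1, -1.77 for APOLD1, -0.93 for FAM43A and 1.04 for TXNIP.

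Transcripts that matched no gene of the annotation used, and so entered no comparison, held 2 further signals when kept as features of their own. ENST00000638706 was at 0 in the 3 wildtype basal libraries and at 156, 109 and 250 normalised reads after ISO, against 333, 311 and 204 at basal and 367, 115 and 260 after ISO in Gαs KO cells (fitted log2 difference -10.61, adjusted p = 0.00273 in edgeR). ENST00000652291 was at 0 in the wildtype basal libraries and at 13.0, 14.2 and 28.2 after ISO, against 31.8, 37.5 and 23.4 and then 37.2, 95.9 and 56.8 in Gαs KO cells (fitted log2 difference -6.18, adjusted p = 0.0325 in edgeR). Both fitted values depend on the prior count, since a group is at 0, and are no bound. The tables used give these transcripts no gene name.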

How the results depend on the processing

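No called difference turned direction under any alternative, and 13 of the 25 genes were called under every alternative other than the 2 stricter thresholds. The counts below are, in order, genes called in the difference, in the wildtype response and in both. They were 68 (15 higher in Gαs KO), 187 (121 up) and 63 with DESeq2, which called 9 genes in Gαs KO cells, 15, 41 and 15 with only the 12 libraries, 56 (8 higher), 225 (157 up) and 55 with GC and length offsets, 52, 217 and 51 with these and a replicate block, and 72, 203 and 72 with the offsets and without wildtype basal replicate 1, where 1 gene was called in Gαs KO cells and 7346 at basal. At an absolute log2 value of at least 1, 28 wildtype genes, 16 in both and 1255 at basal remained, and 3051 basal genes had an adjusted p under 0.01. Leaving out each library gave 19 to 66, 56 to 173 and 19 to 65 genes. The highest counts were without wildtype basal replicate 1, and without wildtype basal replicate 2 there were 110 in the wildtype response. The 6 genes that include FOSL2, ZFP36L1, RGS2, FAM43A and GEM each lost their call without at least 6 of the 12 libraries, one at a time, and the other 19 genes lost none this way. Under other alternatives SIK1B, CITED2, SGK1 and RHOB lost theirs with only the 12 libraries, SGK1, RHOB and ZNF331 with the replicate block within each line, and TOB1 with GC and length offsets. The GNAS difference, 0.14 and not called, was -0.00507 with the offsets, -0.00558 with offsets and block, -0.125 without wildtype basal replicate 1, and -0.0725 without it and with offsets, and ran from -0.125 to 0.27 as each library was left out. Replicate numbers did not pair the libraries (mean correlations of same-numbered deviations -0.06 to 0.03). With the replicate block 26 genes were called in the difference when the number was shared by the lines and 21 when it was taken within each line, where 2815 were called at basal. The causes of these shifts were not tested. EVX1 and EGR3 had under 100 reads in most libraries, and the part of depth in their calls was not tested.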

Other observations

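Of 14 measured neuroendocrine and secreted cAMP targets, none with a called response to ISO in either line, 4 were lower and 1 was higher at basal in Gαs KO cells, with a median basal log2 difference of -0.03. Over all genes, 17.1% were lower and 14.2% higher at basal, and whether the list differs from these shares was not tested. The genes described were picked after their values were seen. CGA, the α subunit of the glycoprotein hormones, had 10240 ± 296 normalised reads (SD, n = 3) in wildtype basal cells and 9862 ± 1083 after ISO, against 12.6 ± 4.71 at basal and 14.7 ± 0.06 after ISO in Gαs KO cells, a basal log2 difference of -9.65 ± 0.21 (edgeR adjusted p = 1.44e-14). PCSK1, a prohormone convertase, had 88.6 ± 26.8 reads at basal in wildtype and 4.66 ± 3.22 in Gαs KO cells, a basal difference of -4.18 ± 0.40 (edgeR adjusted p = 1.08e-06). INHBA, an activin subunit, had 143 ± 38.3 and 22.2 ± 7.92 reads, a basal difference of -2.68 ± 0.30 (edgeR adjusted p = 4.85e-06). BDNF, a neurotrophin, was the member that was higher, with 29.02 ± 12.1 reads in wildtype and 123 ± 15.2 in Gαs KO basal cells (edgeR adjusted p = 6.18e-06).

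Of the 21 listed phosphodiesterase, PKA inhibitor, CREM, SIK and RGS genes, 12 were lower at basal in Gαs KO cells, where 17.1% of all genes were, and PKIA was higher. Among them CREM, whose inducible form represses CREB targets, differed by -0.74 ± 0.11 (edgeR adjusted p = 6.77e-05) and the phosphodiesterase PDE4D by -0.90 ± 0.17 (edgeR adjusted p = 0.000852). TSC22D3, a glucocorticoid-induced leucine zipper gene, was higher at basal in Gαs KO cells, with 12830 ± 185 reads against 1258 ± 253 in wildtype cells. Without wildtype basal replicate 1 it also had a called difference in response, -0.82 ± 0.08 (edgeR adjusted p = 1.18e-05), which with all libraries was -0.65 and not called (adjusted p = 0.166).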
